A study of Mus musculus with 15 samples.

Results

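The peaks described here are NRL-bound regions that the authors' annotation placed between genes and far from a gene start. They are 397 of the 8996 peaks in the deposited table of peak signals from mouse retina. They were chosen by position alone, as peaks that the authors annotated as distal intergenic and placed more than 50 kb (kilobases) from the nearest transcription start site (TSS). They are 4.41% of all peaks and 29.5% of the 1347 distal intergenic peaks. NRL binding had been mapped by CUT&RUN, in which an antibody directs a nuclease to a protein on chromatin in permeabilised cells and the fragments cut loose are sequenced. The material was dissociated retina of C57BL/6J mice at postnatal day 2, 4, 10 or 28 (P2, P4, P10, P28), probed with 1 anti-NRL antibody. Each experiment took 250000 cells of the whole retina, so rods and all other retinal cells entered together. Age was the only factor. The labels name 15 libraries, 3 from P2 and 4 from every later age, and 8 of them have values in the table: replicates 3 and 4 of each age except P10, which has replicates 1 and 4. No library made with a control antibody or from retina without NRL was analysed here, so the background at these peaks was not measured. In bulk retina, fewer rods and less NRL on each rod's chromatin cannot be told apart.

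NRL is a basic leucine zipper (bZIP) factor of the Maf family that directs newborn photoreceptors to the rod fate and then works with the homeobox factor CRX to drive rod genes. Maf proteins bind as dimers to palindromes whose arms carry the letters TGCTGA, around a core shared with AP-1 factors such as c-Jun (TGACTCA), and CRX binds TAATCC. Sites that lie far from genes usually act, where they act at all, as enhancers that reach a promoter through a chromatin loop, and the nearest gene need not be the one they serve. Stretches with no coding gene over long distances, called gene deserts, often surround developmental regulators and hold many of their enhancers. Mouse rods are born up to the end of the first postnatal week, grow outer segments in the weeks after, and are mature at P28.

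Sequence could be read for 4 of the peaks, those that overlap the promoter window (250 bases before to 50 after the start) of a gene in the RefSeq table of GRCm38.p6, the build of the files. The overlapping part is printed on the plus strand, 5′ to 3′, to show the letters under these peaks. Capitals mark the letters TGCTGA of the NRL type, the AP-1 core TGACTCA or the CRX-type letters TAATCC, searched on both strands and counted wherever they occur, overlaps included.
Hey1-assigned peak, chr3:8736590-8736873: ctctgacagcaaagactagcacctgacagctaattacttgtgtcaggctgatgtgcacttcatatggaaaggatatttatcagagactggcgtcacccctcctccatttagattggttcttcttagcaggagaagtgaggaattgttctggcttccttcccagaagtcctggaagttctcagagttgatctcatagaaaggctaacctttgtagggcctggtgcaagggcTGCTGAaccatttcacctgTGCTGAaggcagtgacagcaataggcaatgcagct
D630013N20Rik-assigned peak, chr10:70740245-70740473: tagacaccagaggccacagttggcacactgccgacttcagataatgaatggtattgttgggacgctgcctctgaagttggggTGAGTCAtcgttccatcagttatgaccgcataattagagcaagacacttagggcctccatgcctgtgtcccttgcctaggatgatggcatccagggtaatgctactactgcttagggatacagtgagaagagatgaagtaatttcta
Zfp960-assigned peak, chr17:17004866-17005165: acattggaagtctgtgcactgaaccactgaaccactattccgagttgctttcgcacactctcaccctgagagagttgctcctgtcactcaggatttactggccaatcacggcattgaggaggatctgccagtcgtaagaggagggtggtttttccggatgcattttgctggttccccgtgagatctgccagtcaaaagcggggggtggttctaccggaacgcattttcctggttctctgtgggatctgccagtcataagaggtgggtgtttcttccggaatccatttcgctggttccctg
Lgi1-assigned peak, chr19:38327242-38327335: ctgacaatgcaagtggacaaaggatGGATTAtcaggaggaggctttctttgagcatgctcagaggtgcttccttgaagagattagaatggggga

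The windows belong to the RefSeq genes C230057A21Rik, Gm33979, Gm51425 and Gm9886, whereas the authors' annotation put these peaks 69111, 84280, 58879 and 61790 bp from the TSS of the genes named above. The Hey1-assigned stretch held TGCTGA 2 times; 18.6% of 32851 RefSeq promoter windows trimmed to its 284 bases held that motif. The whole D630013N20Rik-assigned peak of 229 bases held 1 AP-1 site, printed as its reverse complement TGAGTCA; 4.09% of windows of that length held one. The Lgi1-assigned stretch of 94 bases held TAATCC on the minus strand, as 2.35% of windows that long did, and the Zfp960-assigned stretch held none of the 3 motifs. A match in these letters is a description and shows no binding site.

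Signal at these 4 peaks took different courses. The D630013N20Rik-assigned peak, with the AP-1 letters, had 14.3 and 8.31 RPKM at P2, 7.76 and 12.5 at P4, then 1.38 and 0.545 at P10 and 0.676 and 0 at P28. It was strong in all 4 early libraries and near 0 in all 4 later ones, and it fell between P2 and P28 (36 reads against 1, 34.3-fold lower (exact 95% counting interval 5.77 to 1391), limma adjusted p = 0.00023). The Lgi1-assigned peak, with the CRX-type letters, had 0 and 1.40 RPKM at P2, 0.934 and 6.30 at P4, then 11.6 and 10.1 at P10 and 6.83 and 6.02 at P28. Both P28 libraries exceeded both P2 libraries, and the log2 difference was 2.26 ± 0.57 (SE, limma adjusted p = 0.013, but 0.097 without P2 replicate 3). Lgi1 encodes a secreted protein of synapses.
The Zfp960-assigned peak had 1.49 and 0.376 RPKM at P2, 1.76 and 0.847 at P4, then 3.74 and 2.96 at P10 and 6.12 and 3.88 at P28, and P28 exceeded P2 by 1.67 ± 0.47 (SE, limma adjusted p = 0.022, but 0.18 without P2 replicate 4 and 0.13 without P28 replicate 3). The Hey1-assigned peak had 4.72 and 7.88 RPKM at P2, 4.01 and 10.4 at P4, then 5.91 and 6.64 at P10 and 2.14 and 0.969 at P28, and fell from P10 to P28 by 1.55 on the log2 scale (limma adjusted p = 0.037, but 0.16 without P10 replicate 1, 0.19 without P10 replicate 4, 0.057 without P28 replicate 3 or 0.27 without P28 replicate 4). Hey1 encodes a transcription factor of the Notch pathway.

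Signal is given in RPKM, reads per kilobase of peak and per 1000000 of the library's scale, rebuilt from whole reads as set out in the methods. Depth was low: the members received 1925 to 6369 reads per library, with a median of 3 to 8 reads per peak, and 8 to 50 of the 397 had no read in a given library. At the median width of 257 bp, 3 reads are worth 1.46 to 2.22 RPKM. Across the members, Pearson r between the log2 values of an age's 2 libraries was 0.65 (P2), 0.75 (P4), 0.90 (P10) and 0.71 (P28) (397 peaks, which are not independent). The P4 libraries stood apart from each other, with 446 and 856 reads in members per 1000000 of scale in replicates 3 and 4, against 360 and 420 at P2, 860 and 795 at P10 and 298 and 321 at P28. Counted over all peaks, reads per 1000000 of scale were 9856, 9405, 10887, 21545, 30843, 28409, 15209 and 15121 in the libraries ordered by age and replicate. Reads in peaks thus did not keep a fixed ratio to the scale behind RPKM. The ratio was highest at P10, lower again at P28, and differed between the P4 libraries. The labels do not say that replicates came from separate animals, and p-values therefore rest on a spread between libraries that may be technical. Intervals on reads cover counting error only.

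The members were narrow and lay far from the TSS that the authors assigned. Their width ran from 91 to 1031 bp, with a median of 257 bp against 263 bp for the 845 distal intergenic peaks 3 to 50 kb from a TSS, 399 bp for the 5106 peaks within 1 kb of one (called promoter peaks here) and 322 bp for all peaks. The distance to the assigned TSS had a median of 119970 bp. It exceeded 100 kb in 227 members, 250 kb in 97, 500 kb in 24 and 1 Mb in 3. Those 3 were assigned to D3Ertd751e (1677909 bp), Gm32455 (1511013 bp) and Acvr2a, which encodes an activin receptor (1284085 bp). Members lay upstream of the assigned TSS in 215 cases and downstream in 182, and were shared among 337 genes. At the limit of 50 kb, the nearest members inside were assigned to Ints7 (50004 bp, mean 1.55 RPKM), 1700073E17Rik (50381 bp, 6.01) and Rpa1 (50412 bp, 4.35). The nearest peaks outside were assigned to Wif1 (49805 bp, 1.34 RPKM), Galnt3 (49722 bp, 2.16) and Cstad (49568 bp, 1.94).

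Against RefSeq models, 335 members overlapped no gene, 54 overlapped a long non-coding RNA gene and 8 the span of a coding gene; none overlapped a miRNA hairpin. The other 389 sat in gaps between coding genes with a median length of 566005 bp. The gap exceeded 500 kb for 210 members and 1 Mb for 104, and the longest, between Celf4 and Pik3c3 on chromosome 18, spanned 4.51 Mb and held 3 members. In 273 cases the gene the authors assigned was the coding gene on one side of the gap. Chromosomes 13, 3 and 12 gave the largest shares of their peaks to the members (8.14, 7.75 and 7.65%), and chromosome 19 the smallest (1.58%).

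The members held a falling share of NRL signal as the retina matured. Of the reads in peaks, 3.65 and 4.47% fell in members at P2, 4.10 and 3.97% at P4, then 2.79 and 2.80% at P10 and 1.96 and 2.12% at P28. The P2 and P4 values overlapped, both P10 values were below all of them, and both P28 values were lower still. The share differed between ages beyond the spread of the libraries (exact permutation test over 2520 assignments, p = 0.0286; adjusted over the 3 values tested this way, 0.0286), where the smallest p the design allows is 0.00952. Mean shares were 4.06 ± 0.58% (SD, n = 2) at P2 and 2.04 ± 0.11% at P28. Each member overlapped the authors' list of called peaks for at least 1 age, so it was selected through a call at some age. How far that selection shapes the shares was not tested.

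**Figure D1:**
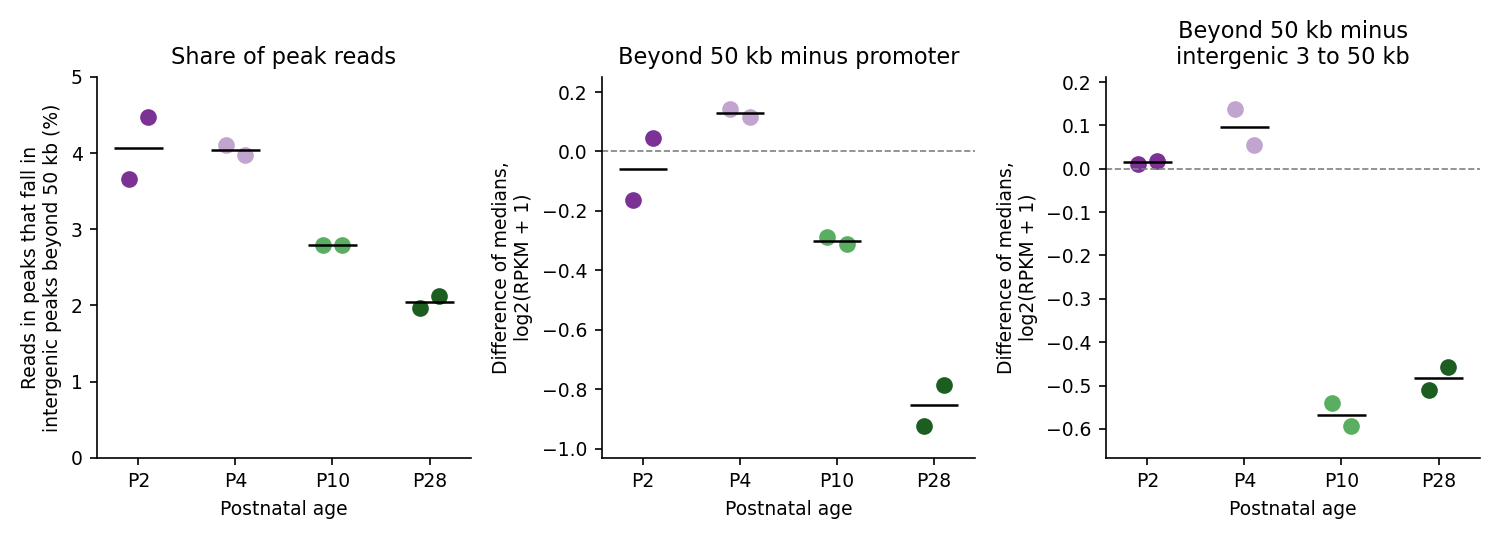
Points are libraries, 2 per age, and bars their means. Left, the share of reads in peaks that fell in the 397 intergenic peaks beyond 50 kb (%), which was 3.65 to 4.47% at P2 and P4 and 1.96 to 2.12% at P28. Middle and right, the median log2(RPKM + 1) of these peaks minus that of promoter peaks and minus that of intergenic peaks 3 to 50 kb from a TSS; the dashed line marks no difference.

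Against promoter peaks, the loss came in steps at P10 and at P28. The median log2(RPKM + 1) of the members minus that of promoter peaks was −0.16 and 0.05 in the P2 libraries, 0.14 and 0.12 in those of P4, −0.29 and −0.31 in those of P10 and −0.92 and −0.78 in those of P28. Only P2 replicate 4 and the P4 libraries were above 0, and the P28 pair lay far below all others. Ages differed at the smallest p the design allows (exact permutation test, p = 0.00952, and 0.0143 adjusted over the 3 values). Members were selected through a call at some age, at P4 alone for 20.9% of them against 5.26% of all peaks. How far that selection shapes this difference and its p-value was not tested.

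Against intergenic peaks nearer to a TSS, the difference arose at P10 and stayed. Members minus the 3 to 50 kb class gave 0.01 and 0.02 for P2, 0.14 and 0.05 for P4, −0.54 and −0.59 for P10 and −0.51 and −0.46 for P28 (exact permutation test, p = 0.00952; adjusted, 0.0143). All 4 libraries of P2 and P4 were above 0 and all 4 of P10 and P28 below −0.45, with no overlap. The selection of members through calls at some age bears on this comparison too, and its effect was not tested. The nearer class had a median of 6.85 and 6.86 RPKM at P10, whereas the members had 4.39 and 4.21 RPKM there and 2.87 and 4.73 RPKM at P4. The share of reads does not depend on a library's scale, and the differences of medians do so only through the pseudocount of 1.

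Median signal at P10 and P28 was lower in the bands beyond 250 kb than in those nearer to a TSS. Median signal over the 170 members from 50 to 100 kb was 2.02 RPKM (P2), 4.08 (P4), 5.12 (P10) and 2.26 RPKM (P28). Over the 130 members from 100 to 250 kb the medians were 2.26, 4.27, 4.77 and 1.68 RPKM. The 73 members from 250 to 500 kb had 2.09, 3.64, 2.78 and 1.31 RPKM and thus their highest median at P4. The 24 members beyond 500 kb had 1.58, 2.99, 3.07 and 1.25 RPKM. Sorted by the gap around them instead, the 104 members in gaps over 1 Mb had medians of 1.88, 3.10, 3.43 and 1.47 RPKM, and the 166 in gaps of 100 to 500 kb had 2.17, 4.18, 5.41 and 2.33 RPKM. These medians carry no test.

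The authors' lists of peaks called at each age gave the members a larger place early than late. Rows that met the rule were 58 of 1221 peaks at P2 (4.75%, Wilson 95% interval 3.69 to 6.09), 178 of 3161 at P4 (5.63%, 4.88 to 6.49), 260 of 7520 at P10 (3.46%, 3.07 to 3.89) and 67 of 3482 at P28 (1.92%, 1.52 to 2.44). Among the 1221 strongest peaks of each list by the authors' signal, they were 58, 68, 42 and 23. Each age has 1 list, so no spread between samples stands behind these shares.

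Presence in P4 but no other list covered 83 members (20.9%), against 5.26% of all peaks, the widest gap in percentage points of any pattern. Presence at P10 alone covered 162 members (40.8%), close to the 41.9% of all peaks. Lists of P2 and P4 together held 16 members (4.03%, against 0.900% of all peaks), and P2 alone held 13 (3.27%, against 1.17%). All 4 lists held 7 members (1.76%) against 7.41% of all peaks. By mean RPKM, 125 members (31.5%) had their highest age at P4, against 9.15% of all peaks, 214 (53.9%) at P10 against 70.4%, 31 (7.81%) at P28 against 18.2%, and 27 (6.80%) at P2 against 2.30%. These counts carry no test, and the P4 mean includes replicate 4 with its higher signal over all peaks. Each member stood in at least 1 list, so its highest age and its lists are not independent.

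**Figure D2:**
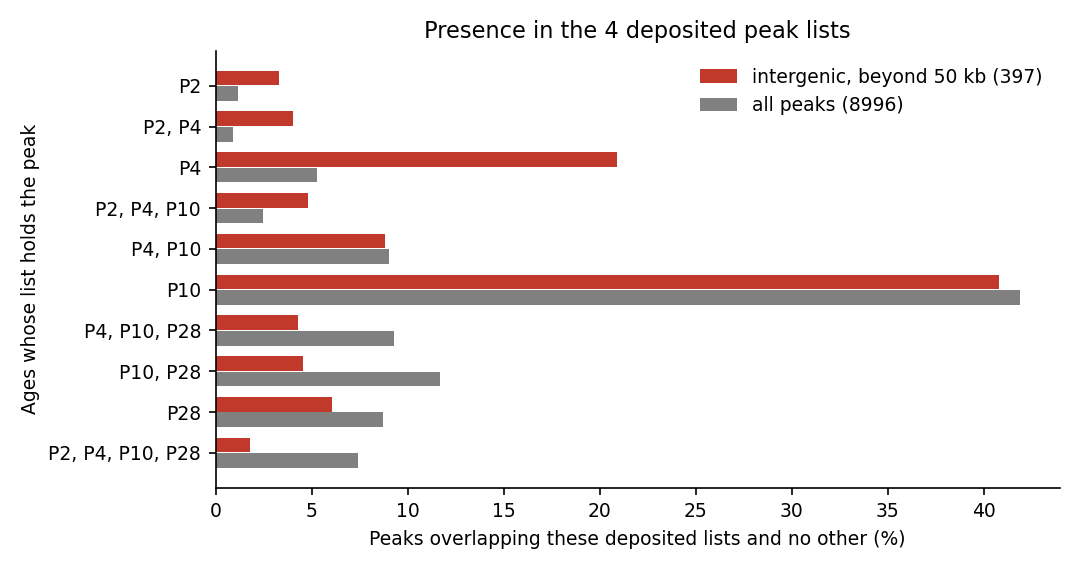
Bars give the percent of peaks that overlap the deposited lists of the ages named on the vertical axis and no other list, in red for the 397 intergenic peaks beyond 50 kb and in grey for all 8996 peaks. The P4-only bar is 20.9% against 5.26%, while the P10-only bars are 40.8 and 41.9%; 2 patterns with 3 members in all are not drawn.

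The strongest members were a handful of sites, most of them high at P10 and low at P28. The highest mean belonged to a peak assigned to Mroh5 at chr15:74052920-74053365, 213221 bp from its TSS in a gap of 676287 bp that ends at Adgrb1, the gene of an adhesion receptor of the brain. Its signal was 30.5 and 39.2 RPKM at P2, 42.7 and 101 at P4, then 117 and 92.3 at P10 and 12.9 and 15.4 at P28. Both P28 libraries were below every other library, and the log2 change from P10 to P28 was −2.80 ± 0.55 (SE, limma adjusted p = 0.0014). The 75th percentile of the members' mean signal was 5.60 RPKM, and this peak had 56.3 RPKM.

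Behind it stood a peak at chr18:8937824-8937995, 274168 bp from Fzd8, the gene of a Wnt receptor. It had 14.6 and 11.1 RPKM at P2, 21.4 and 38.2 at P4, then 77.0 and 64.6 at P10 and 10.8 and 12.4 at P28. Signal was highest in the P10 pair and fell to values that overlapped those of P2 (log2 −2.51 ± 0.54, limma adjusted p = 0.0025, but 0.062 without P10 replicate 1). The peak 226807 bp from Pex5l, whose product binds HCN channels in neurons, had 8.35 and 3.88 RPKM at P2, 18.1 and 36.4 at P4, then 63.5 and 60.5 at P10 and 15.0 and 21.7 at P28. P10 was again the highest age; the fall to P28 had an adjusted p of 0.030 in limma and of 0.20 without P10 replicate 1, 0.16 without P10 replicate 4, 0.21 without P28 replicate 3 or 0.085 without P28 replicate 4.

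An Ankrd55-assigned peak (chr13:112159917-112160367) had 13.1 and 18.1 RPKM at P2, 20.0 and 47.5 at P4, then 58.7 and 58.1 at P10 and 6.18 and 5.08 at P28. Its P28 libraries were the lowest, and the fall from P10 was −3.17 ± 0.55 on the log2 scale (limma adjusted p = 0.00064). The Klhl1-assigned peak (chr14:97068845-97069137), in a gap of 1267810 bp that ends at Dach1, a gene of early eye development, had 16.8 and 27.3 RPKM at P2, 24.3 and 60.4 at P4, then 42.5 and 45.1 at P10 and 1.06 and 7.26 at P28. It fell from P10 to P28 by 3.44 (limma adjusted p = 0.00089), although its P28 libraries lay far apart.
The peak 65321 bp from Jarid2, which encodes a partner of Polycomb repressive complex 2, had 13.7 and 19.2 RPKM at P2, 14.3 and 39.4 at P4, then 33.7 and 55.8 at P10 and 18.7 and 22.3 at P28. It did not pass any of the 4 comparisons (limma adjusted p from 0.18 to 0.72), and its P28 mean was the highest among the 10 strongest members.

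**Figure D3:**
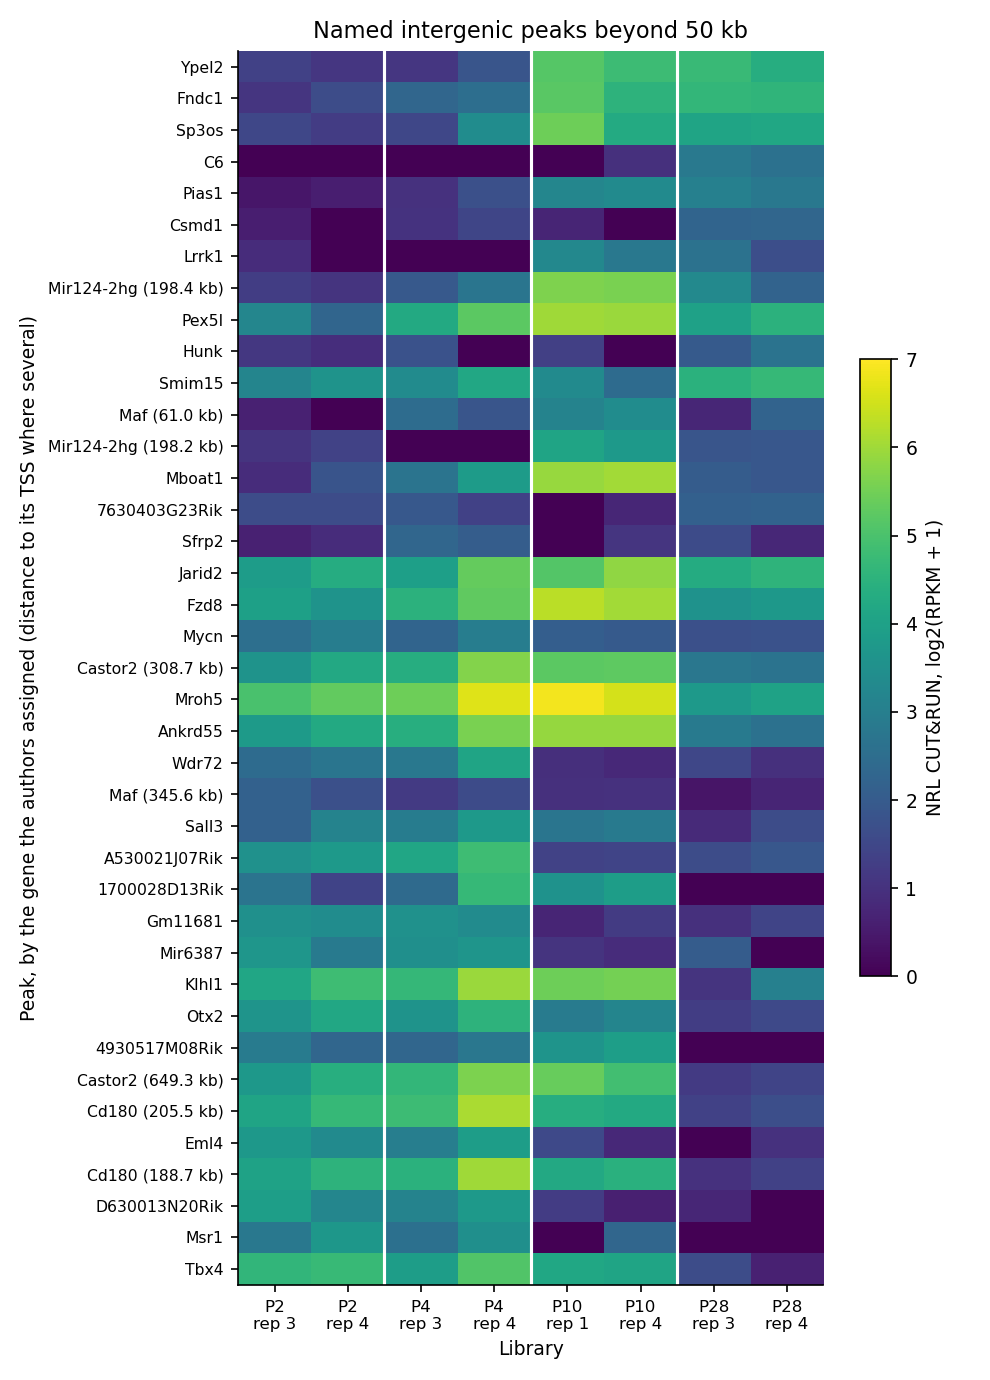
Each line is 1 named peak and each column 1 library; colour gives log2(RPKM + 1), from 0 to 7. Peaks are ordered by the change from P2 to P28, highest on top. Ypel2 and Fndc1 are dark at P2 and bright at P28, Mboat1 and the Mir124-2hg pair are bright at P10 alone, and the peaks from Cd180 down fade after P4 or P10.

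Comparisons that share an age share its 2 libraries, so successive steps are not independent. Members were also called as peaks at some age of the same series, so their changes with age are not independent of those calls. Between P2 and P4 no member passed the test. Limma called 0 of 397 members and 0 of all peaks (background 0%). Its unadjusted p was under 0.05 for 95 of the 397 members, 87 higher and 8 lower at P4. Of all 8996 peaks, 1365 had such a p. The median log2 change was 0.51 for the members and 0.48 for all peaks. Libraries of P2 and P4 did not overlap for 169 members higher at P4 (42.6%; background 40.1%) and 21 lower (5.29%; background 3.91%). Limma-voom on recovered reads called 5 members, all lower, and 36 of all peaks. The count of 0 rested on single libraries: it was 44 without P4 replicate 3 (836 of all peaks), 25 without P2 replicate 3 (199), 4 without P2 replicate 4 (34), and 18 without P28 replicate 3 (114) or P28 replicate 4 (121).

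Between P4 and P10 the members moved both ways. Limma called 51 of them higher at P10 (12.8%; background 15.6% of all peaks) and 40 lower (10.1%; background 1.51% of all peaks). The members thus supplied 40 of the 136 peaks that fell in this step. Of the 845 nearer intergenic peaks, 185 were called higher and 20 lower, and of the 5106 promoter peaks 394 and 10. The members' median change of 0.47 was below that of all peaks by 0.26 on the log2 scale; all peaks had a median of 0.73, which centring each library on its median takes to 0.02 and the members to −0.24. After centring, 10 members were called higher and 72 lower, of 552 called among all peaks, and limma-voom called 12 and 117, of 1085. The count of 91 became 23 without P4 replicate 3 (215 of all peaks), 17 without P10 replicate 1 (221) and 23 without P10 replicate 4 (388), from 1541 of all peaks with every library. Without P4 replicate 4 it was 114 (3040 of all peaks), with 89 higher and 25 lower. Libraries of the ages compared did not overlap for 116 members lower at P10 (29.2%; background 6.31%) and 175 higher (44.1%; background 58.9%).

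**Figure D4:**
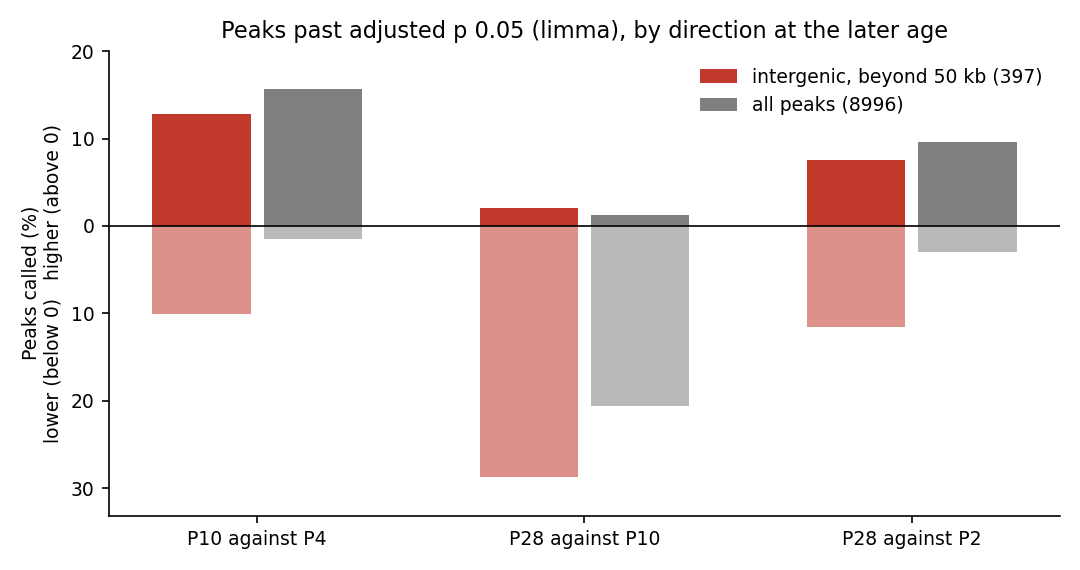
Bars above 0 give the percent of peaks called higher at the later age and paler bars below 0 the percent called lower (limma, adjusted p under 0.05), in red for the 397 intergenic peaks beyond 50 kb and in grey for all 8996 peaks. In P10 against P4 and in P28 against P2 the red bars below 0 reach 10.1 and 11.6%, and the grey ones 1.51 and 3%.

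The steepest rises to P10 were at Mir124-2hg, Ypel2, Lrrk1 and Mboat1. The peak at chr3:17591305-17591481, 198440 bp from Mir124-2hg, the host gene of a neuronal microRNA, had 1.42 and 1.07 RPKM at P2, 2.87 and 5.65 at P4, then 49.0 and 47.2 at P10 and 8.75 and 3.70 at P28. Both P10 libraries were far above all others, and the log2 change from P4 was 3.27 ± 0.54 (SE, limma adjusted p = 0.00061). Its neighbour at chr3:17591643-17591761 had 1.06 and 1.60 RPKM at P2, 0 and 0 at P4, then 15.9 and 12.6 at P10 and 2.60 and 2.75 at P28. It had no read at P4 (24 reads against 0, at least 8.29-fold higher at P10, limma adjusted p = 1.5e-05).

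A peak 51319 bp from Ypel2 (chr11:86920377-86920705) had 1.53 and 1.16 RPKM at P2, 1.16 and 2.60 at P4, then 34.5 and 26.9 at P10 and 25.9 and 19.4 at P28. It was low in all 4 early libraries and high in all 4 later ones, rising from P4 to P10 by 3.50 ± 0.53 (limma adjusted p = 0.00036). The Mboat1-assigned peak (chr13:30067651-30067950), between that gene and E2f3, a cell cycle regulator, had 0.840 and 2.54 RPKM at P2, 5.50 and 13.3 at P4, then 59.4 and 64.5 at P10 and 3.10 and 2.73 at P28. It rose by 2.70 to P10 (limma adjusted p = 0.0028) and fell by 4.01 to P28 (limma adjusted p = 8.7e-05), so that P28 was back within the range of P2 and P4. Mboat1 encodes a lysophospholipid acyltransferase.
The Lrrk1-assigned peak (chr7:66196048-66196194) had 0.857 and 0 RPKM at P2, 0 and 0 at P4, then 8.58 and 5.94 at P10 and 5.27 and 2.23 at P28. It was without a read at P4 (15 reads against 0, at least 5.18-fold higher at P10, limma adjusted p = 0.0005). Lrrk1 encodes a kinase related to the Parkinson's disease kinase LRRK2.

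The steepest falls to P10 were at sites already on at P2. A peak 53557 bp from A530021J07Rik (chr7:83202201-83202496) had 10.6 and 12.9 RPKM at P2, 16.7 and 27.5 at P4, then 1.60 and 1.69 at P10 and 2.09 and 2.77 at P28, and fell by 3.09 ± 0.52 (SE, limma adjusted p = 0.00061). All 4 early libraries were at or above 10.6 RPKM and all later ones at or below 2.77. The peak assigned to the predicted gene Gm11681 (chr11:112982378-112982852), in the gap next to Sox9, the gene of a progenitor and glial transcription factor, had 10.3 and 9.61 RPKM at P2, 10.7 and 9.32 at P4, then 0.663 and 1.31 at P10 and 0.978 and 1.72 at P28. It fell by 2.49 (limma adjusted p = 0.0019, but 0.065 without P10 replicate 1), and the groups did not overlap.

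A Wdr72-assigned peak (chr9:74384277-74384446), in the gap between Wdr72 and Onecut1, the gene of a transcription factor of early retinal neurons, had 4.45 and 5.60 RPKM at P2, 5.98 and 16.0 at P4, then 0.927 and 0.734 at P10 and 1.82 and 0.963 at P28. It fell from P4 to P10 (27 reads against 2, 13.0-fold lower (exact 95% counting interval 3.27 to 113), limma adjusted p = 0.0019). The peak assigned to Mir6387 (chr12:15566207-15566354), in a gap of 1639690 bp between Lratd1 and Trib2, had 11.9 and 6.43 RPKM at P2, 10.3 and 11.6 at P4, then 1.06 and 0.843 at P10 and 3.14 and 0 at P28. It fell too (24 reads against 2, 11.6-fold lower (exact 95% counting interval 2.88 to 101), limma adjusted p = 0.0041, but 0.080 without P4 replicate 3). The D630013N20Rik-assigned peak printed above was the remaining one of the 5 steepest falls (34 reads against 3, 10.9-fold lower (exact 95% counting interval 3.44 to 55.7), limma adjusted p = 0.0022, but 0.055 without P10 replicate 4).

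Between P10 and P28 most called members fell. Limma called 114 lower (28.7%; background 20.7% of all peaks) and 8 higher (2.02%; background 1.29%). The median change was −0.86 for members and −0.69 for all peaks, a difference of −0.17. Centring each library on its median took these medians to −0.26 and −0.09, and limma-voom gave −0.19 and 0.15. The size of the median fall, and for all peaks its direction, thus depends on the library scale. Among nearer intergenic peaks 267 of 845 fell (31.6%), a share near that of the members. Libraries of P10 and P28 did not overlap for 257 members lower at P28 (64.7%; background 61.7%) and 30 higher (7.56%; background 10.1%). With each library centred on its median the calls were 53 lower and 18 higher, of 1155 among all peaks, and limma-voom gave 42 and 25, of 1986. The count of 122 became 44 and 52 when P10 replicate 1 or 4 was left out and 77 without P28 replicate 3, while that of all peaks went from 1974 to 507, 675 and 1154.

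Of the 5 steepest falls to P28, 2 took peaks to no reads. The steepest was that of the Mboat1-assigned peak given above (log2 −4.01 ± 0.56 SE), and the Klhl1-assigned peak was also among them. A peak 169206 bp from 4930517M08Rik (chr17:4804184-4804280), in a gap of 1298040 bp that ends at Arid1b, had 6.49 and 3.92 RPKM at P2, 3.93 and 5.89 at P4, then 11.4 and 14.1 at P10 and 0 and 0 at P28. It had no read in either P28 library (18 reads at P10 against 0, at least 5.25-fold lower, limma adjusted p = 5.3e-05). A peak 171175 bp from 1700028D13Rik (chr5:112035473-112035588) had 5.43 and 1.64 RPKM at P2, 4.38 and 24.6 at P4, then 10.9 and 14.0 at P10 and 0 and 0 at P28, with 21 reads at P10 against 0 at P28, at least 6.12-fold lower (limma adjusted p = 0.00059). P4 replicate 4 was its highest library.
The Castor2-assigned peak at chr5:133449954-133450429, 649282 bp from the gene of an arginine sensor of the mTORC1 pathway, had 12.2 and 20.0 RPKM at P2, 23.7 and 48.0 at P4, then 40.7 and 28.6 at P10 and 1.30 and 1.72 at P28. It fell by 3.81 ± 0.55 from P10 to P28 (SE, limma adjusted p = 0.00014), and both P28 libraries were below all others.

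Few members rose to P28. The peak 80020 bp from C6, a gene of the terminal complement cascade, had 0 and 0 RPKM at P2, 0 and 0 at P4, then 0 and 0.975 at P10 and 6.05 and 5.12 at P28. It had no read at P2 or P4 (9 reads against 1, 10.3-fold higher (exact 95% counting interval 1.43 to 451) for P28 against P10, limma adjusted p = 0.0017, but 0.097 without P10 replicate 1). A peak 273889 bp from the TSS of Csmd1, the gene of a complement inhibitor of the brain (chr8:15710678-15710923), had 0.512 and 0 RPKM at P2, 1.03 and 1.74 at P4, then 0.641 and 0 at P10 and 3.78 and 3.99 at P28. It rose from P10 (12 reads against 1, 13.7-fold higher (exact 95% counting interval 2.03 to 586), limma adjusted p = 0.0051, but 0.12 without P10 replicate 4).
A peak 54762 bp from Smim15 (chr13:107989375-107989684) was the strongest of the 8 with 8.13 and 11.0 RPKM at P2, 9.42 and 17.5 at P4, then 9.15 and 4.43 at P10 and 21.0 and 24.8 at P28. The P28 pair was above every other library, and the log2 change of 1.68 ± 0.55 (limma adjusted p = 0.031) did not hold when a library was left out (0.091 without P10 replicate 1, 0.32 without P10 replicate 4, 0.11 without P28 replicate 3 or 0.18 without P28 replicate 4). Peaks assigned to 7630403G23Rik and to the kinase gene Hunk also rose (8 reads against 1, 9.14-fold higher (exact 95% counting interval 1.23 to 406) and 11 reads against 2, 6.29-fold higher (exact 95% counting interval 1.37 to 58.4); limma adjusted p = 0.0081 and 0.036). Neither call held without every library: for the first the adjusted p was 0.16 without P10 replicate 1, and for the second it was 0.36 without P10 replicate 4 and 0.13 without P28 replicate 4.

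Across the whole span, from P2 to P28, more members were called lower than higher in RPKM, while among all peaks more were called higher. Limma called 46 members lower at P28 (11.6%; background 3% of all peaks) and 30 higher (7.56%; background 9.64%). The members were 46 of the 270 peaks called lower. The nearer intergenic class had 48 lower and 103 higher of 845, and promoter peaks 20 and 400 of 5106. The median change was −0.20 for the members and 0.57 for all peaks, a difference of −0.77. Centring each library on its median took these medians to −0.78 and −0.01, and limma-voom gave −0.92 and 0.08. The median rise of all peaks thus depends on the library scale. After centring each library the calls were 97 lower and 9 higher, of 947 among all peaks, and limma-voom gave 83 and 5, of 887. Libraries did not overlap for 141 members lower at P28 (35.5%; background 11.8%) and 103 higher (25.9%; background 52.5%). An F test over the 4 ages passed for 257 members (64.7%; background 45.9%), for 158 (1985 of all peaks) without P10 replicate 1 and for 159 (2197) without P10 replicate 4.

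The peaks that fell furthest from P2 to P28 were at Tbx4, Msr1, D630013N20Rik, Cd180 and Eml4. Of a pair of Cd180-assigned peaks 16471 bp apart, the nearer (chr13:102504560-102504872) had 15.3 and 21.9 RPKM at P2, 21.1 and 63.4 at P4, then 17.6 and 20.7 at P10 and 0.990 and 1.57 at P28. Its P4 libraries differed widely, and both P28 libraries were below all the rest, and the log2 change from P2 was −3.09 ± 0.57 (SE, limma adjusted p = 0.0011). The further one (chr13:102487791-102488088) had 16.1 and 24.9 RPKM at P2, 26.8 and 68.5 at P4, then 19.6 and 18.0 at P10 and 1.56 and 2.20 at P28 and fell by 2.88 (limma adjusted p = 0.0018). Cd180 encodes a Toll-like receptor relative of B cells, and the other end of the gap is Pik3r1, the gene of a regulatory subunit of PI3-kinase.
A peak 62564 bp from Eml4, a gene of a microtubule-binding protein, had 12.2 and 9.23 RPKM at P2, 6.93 and 13.8 at P4, then 1.91 and 0.756 at P10 and 0 and 0.992 at P28. It fell between P2 and P28 (24 reads against 1, 22.9-fold lower (exact 95% counting interval 3.73 to 940), limma adjusted p = 0.00046). The Msr1-assigned peak (chr8:39555965-39556090), which overlaps the RefSeq span of that macrophage receptor gene, had 6.00 and 12.1 RPKM at P2, 5.04 and 10.2 at P4, then 0 and 3.96 at P10 and 0 and 0 at P28. No read was found at P28 (14 reads against 0, at least 4.44-fold lower, limma adjusted p = 0.0018).

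The peaks that rose most were at Ypel2, Fndc1, Sp3os, C6 and Pias1. The Ypel2-assigned peak described above rose by 3.33 ± 0.53 (SE, limma adjusted p = 0.0003); both P28 libraries lay below both P10 libraries and far above those of P2 and P4. The peak 126563 bp from Fndc1 (chr17:7634003-7634452), over the non-coding RNA gene Gm33158, had 1.12 and 2.11 RPKM at P2, 3.95 and 4.76 at P4, then 35.7 and 21.9 at P10 and 23.8 and 22.9 at P28. It rose by 3.24 (limma adjusted p = 0.00043), with all 4 later libraries above all 4 earlier ones.
A peak 59476 bp from Sp3os (chr2:73046717-73046998), between the transcription factor gene Sp3 and Ola1, had 1.79 and 1.35 RPKM at P2, 1.80 and 9.62 at P4, then 43.0 and 18.6 at P10 and 15.9 and 16.8 at P28. It rose by 2.76 from P2 to P28 (limma adjusted p = 0.0048). A peak 71203 bp from the TSS of Pias1, the gene of a SUMO ligase (chr9:63059127-63059508), had 0.330 and 0.498 RPKM at P2, 0.997 and 2.24 at P4, then 8.25 and 9.15 at P10 and 7.30 and 6.00 at P28 (32 reads against 2, 16.8-fold higher (exact 95% counting interval 4.29 to 145) at P28, limma adjusted p = 0.0015). The C6-assigned peak had 9 reads at P28 and none at P2, at least 3.15-fold higher (limma adjusted p = 0.00046).

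Neighbouring members formed 36 clusters, taken as runs in which edges lie within 100 kb of the next. They held 84 members (21.2%): 26 clusters of 2, 9 of 3 and 1 of 5. The span had a median of 29263 bp and ran from 741 to 136067 bp, and in 5 clusters a pair lay within 1 kb. Of the 36, 21 lay in gaps over 500 kb between coding genes and 6 in gaps over 1 Mb. Summed signal was highest at P10 in 29 clusters, at P4 in 5 and at P2 and P28 in 1 each. Taken singly, 53.9% of members and 70.4% of all peaks were highest at P10. With gaps of 50 kb allowed there were 31 clusters, and with 250 kb there were 44. At 100 kb, 34.15% of the 1347 distal intergenic peaks at any distance lay in clusters, against 21.2% of the members. The larger set is denser and includes the members, so these shares do not compare like with like.

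The cluster of 5 lies between Tbx4, a T-box gene of limb and lung development, and Brip1, the gene of a DNA repair helicase, in a gap of 142038 bp on chromosome 11. It was the single cluster with members called in both directions in the same comparison. Its strongest peak at P2, the middle one of the 5 (chr11:86038531-86038825) had 23.5 and 25.2 RPKM at P2, 13.8 and 33.4 at P4, then 17.1 and 16.1 at P10 and 2.10 and 0.555 at P28. Both P10 libraries were below both P2 libraries and far above those of P28, and it fell by 3.53 ± 0.57 from P2 to P28 (SE, limma adjusted p = 0.00033). The next (chr11:86039316-86039615), 490 bp further, had 12.2 and 10.8 RPKM at P2, 5.93 and 7.62 at P4, then 1.58 and 1.25 at P10 and 0.516 and 0.546 at P28. It was low from P10 on (46 reads against 2, 21.9-fold lower (exact 95% counting interval 5.73 to 186) for P28 against P2, limma adjusted p = 0.0002).

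The first and second peaks of the cluster went the other way. The second (chr11:85990177-85990357) had 2.09 and 5.26 RPKM at P2, 4.91 and 1.58 at P4, then 12.2 and 11.0 at P10 and 10.3 and 12.7 at P28, and all 4 later libraries exceeded all 4 earlier ones (P10 against P4, log2 1.69 ± 0.55, limma adjusted p = 0.037). The first (chr11:85972485-85972681) had 0 and 2.90 RPKM at P2, 0.645 and 0.725 at P4, then 5.60 and 3.17 at P10 and 3.15 and 4.16 at P28 (12 reads against 2, 6.22-fold higher (exact 95% counting interval 1.38 to 57.2) at P10, limma adjusted p = 0.037). Neither rise held when a library was left out: the adjusted p was 0.097 without P4 replicate 4, 0.22 without P10 replicate 1 or 0.16 without P10 replicate 4 for the second peak and 0.25 without P4 replicate 3, 0.089 without P4 replicate 4, 0.27 without P10 replicate 1 or 0.084 without P10 replicate 4 for the first. After centring each library it was 0.34 and 0.40. The fifth peak, assigned to Brip1 (chr11:86051505-86051830), had 5.41 and 4.09 RPKM at P2, 3.12 and 8.32 at P4, then 2.42 and 1.53 at P10 and 1.90 and 0.502 at P28 and passed no pairwise comparison (P28 against P2, limma adjusted p = 0.055).

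**Figure D5:**
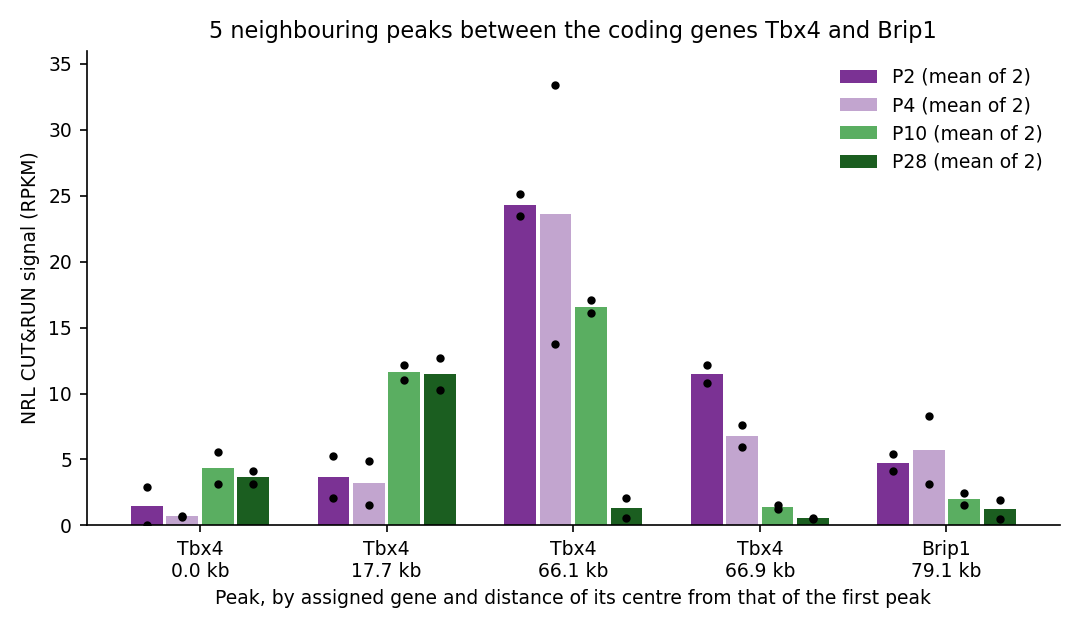
Signal (RPKM) at the 5 neighbouring peaks between Tbx4 and Brip1, with 1 bar per age (mean of 2 libraries) and dots for the libraries; labels give the assigned gene and the distance of each centre from the first. The middle peak and the next one are lowest at P28, at 0.52 to 2.10 RPKM, and the second is highest at P10 and P28, at 10.3 to 12.7 RPKM.

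In the desert of 1731410 bp between Ythdf3 and Cypt12, 5 members were found, 4 of them assigned to Mir124-2hg. The pair described above rose at P10, and another peak of the cluster (chr3:17620546-17620750) had 6.14 and 5.57 RPKM at P2, 8.67 and 8.36 at P4, then 16.1 and 19.5 at P10 and 11.3 and 7.19 at P28. It was present in all libraries and passed no comparison (P10 against P4, limma adjusted p = 0.19). One more, 464703 bp away, had 3.21 and 3.64 RPKM at P2, 4.85 and 12.3 at P4, then 22.1 and 24.2 at P10 and 7.40 and 8.86 at P28. All 4 were highest at P10 by their mean.

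The other gaps with 5 members lay between Auts2 and Castor2 and between Cd83 and Jarid2. The first spans 1556530 bp on chromosome 5 next to Auts2, a neurodevelopmental gene. Its strongest peak (chr5:133790672-133791038) had 11.0 and 17.6 RPKM at P2, 19.7 and 51.4 at P4, then 36.5 and 37.4 at P10 and 5.91 and 5.35 at P28, with P28 below every other library (P28 against P10, log2 −2.52 ± 0.56, limma adjusted p = 0.0034, but 0.051 without P10 replicate 1). In that gap 3 of 5 members fell from P10 to P28, as did 28.7% of all members and 20.7% of all peaks. In all, 52 gaps held 2 or more members and 17 held 3 or more, and 18 gaps over 1 Mb held at least 2. The gap of 2.12 Mb between Lcorl and Slit2, the gene of an axon guidance ligand, held 4 members, each with its highest mean at P4.

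At Cadm1, the gene of a synaptic adhesion molecule, 3 members spread over 93328 bp each had their highest mean at P10. The middle one (chr9:47401856-47402345) had 2.06 and 1.16 RPKM at P2, 6.22 and 11.7 at P4, then 22.5 and 21.6 at P10 and 3.16 and 4.01 at P28. It fell from P10 to P28 by 2.34 on the log2 scale (limma adjusted p = 0.0034). The first along the chromosome (chr9:47374446-47374698) had 2.51 and 6.77 RPKM at P4, then 18.7 and 13.8 at P10 and 1.84 and 6.47 at P28, with both P2 libraries below all of these. Its rise to P10 (limma adjusted p = 0.042) was lost, with 0.40 without P4 replicate 3, 0.23 without P10 replicate 1 or 0.11 without P10 replicate 4, and so was its fall to P28 (limma adjusted p = 0.022), with 0.15 without P10 replicate 1, 0.065 without P10 replicate 4 or 0.24 without P28 replicate 3. The last (chr9:47467624-47467773) had 0 and 3.81 RPKM at P2, 3.39 and 4.76 at P4, then 7.35 and 7.49 at P10 and 5.16 and 1.09 at P28 and passed no comparison. Summed over the cluster, signal was 1.42 ± 0.41 RPKM (SD, n = 2) for P2, 6.90 ± 3.13 for P4, 18.0 ± 1.3 for P10 and 3.67 ± 0.77 for P28. The cluster assigned to Ppp2r3d packed 3 peaks into 1409 bp at the end of chromosome 9 and had 5.21 ± 2.11, 7.77 ± 4.36, 12.4 ± 3.0 and 8.09 ± 2.64 RPKM; none of its peaks passed a comparison.
The cluster at Kif14, a mitotic kinesin gene, and Zfp281 had 3.87 ± 2.23, 5.37 ± 2.92, 10.8 ± 1.4 and 5.21 ± 1.96 RPKM, again with no called member. At Lrrc74a and Irf2bpl, 3 members had 4.79 ± 1.38, 7.26 ± 2.52, 9.41 ± 1.31 and 2.62 ± 0.43 RPKM. From P10 to P28, 2 of them were called lower, as were 28.7% of all members and 20.7% of all peaks. Without single libraries those log2 changes ran from −2.15 to −1.66 (Lrrc74a) and from −1.71 to −1.36 (Irf2bpl). Neither call held in every such fit.

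Members were assigned to few genes of the lists. No member was assigned to any of 35 genes of the rod outer segment and its phototransduction, of which 33 had other peaks, 70 in all. The lists of cone genes (14), bipolar markers (14) and markers of ganglion, amacrine and horizontal cells (16) had none either. Each of these had only 6 peaks of any kind, and members are 4.41% of all peaks, so the absence says little. Lists of Müller glial genes (10) and of microglia and vessels (11) had 0 peaks of any kind and could hold no member. Of 21 photoreceptor transcription factors 1 had a member, of 24 progenitor and neurogenic genes 2, of 29 bZIP factors 1, and of 75 developmental transcription factors often flanked by gene deserts 6. Those last genes held 8 members, of which 4 fell from P10 to P28 (28.7% of all members and 20.7% of all peaks did). From P2 to P28, 2 fell (11.6 and 3%). None was called higher, as 12.8% of all members were for P10 against P4, 2.02% for P28 against P10 and 7.56% for P28 against P2. With 8 peaks this is no difference to read. The 4 falls after P10, at Otx2, Maf and Sall3, did not keep their calls in every fit that left out a library.

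The peak of the photoreceptor list was at Otx2, which encodes the homeobox factor that starts the photoreceptor programme and is also made in pigment epithelium and bipolar cells. It lies 52645 bp from the TSS (chr14:48608516-48609287) and had 11.3 and 17.5 RPKM at P2, 11.2 and 22.0 at P4, then 6.53 and 8.08 at P10 and 1.40 and 1.91 at P28. Levels were high at P2 and P4, lower at P10 and lowest at P28, with no overlap between P2 and P28 (log2 −2.51 ± 0.54 SE, limma adjusted p = 0.0039). With the values as deposited, which divide by other peaks' widths, the adjusted p was 0.29.

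At the progenitor genes, a member near Sfrp2 fell from P4 to P10. The peak 74467 bp from Sfrp2, a secreted Wnt modulator of progenitors, had 0.557 and 0.842 RPKM at P2, 3.93 and 3.16 at P4, then 0 and 1.10 at P10 and 2.06 and 0.724 at P28. It was higher at P4 than at any other age (12 reads against 2, 5.79-fold lower (exact 95% counting interval 1.29 to 53.3) for P10 against P4, limma adjusted p = 0.022, but 0.20 without P4 replicate 3 and 0.32 without P10 replicate 1).

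Maf, which encodes a relative of NRL with the same DNA preference, had 2 members. The nearer (chr8:115768773-115768994) had 0.567 and 0 RPKM at P2, 4.58 and 2.57 at P4, then 7.81 and 9.55 at P10 and 0.698 and 3.69 at P28 and was highest at P10; its fall to P28 (log2 −1.77 ± 0.50, limma adjusted p = 0.015) had 0.073 without P10 replicate 1, 0.11 without P10 replicate 4 or 0.26 without P28 replicate 3. The further (chr8:116053437-116053935), 345643 bp away, had 3.53 and 2.29 RPKM at P2, 1.27 and 2.00 at P4, then 0.947 and 1.00 at P10 and 0.310 and 0.656 at P28 and was highest at P2 (20 reads against 3, 6.35-fold lower (exact 95% counting interval 1.88 to 33.4) for P28 against P2, limma adjusted p = 0.042). That call was lost in 6 of the 8 fits that left out a library, where the adjusted p was 0.17 without P2 replicate 3, 0.062 without P2 replicate 4, 0.083 without P10 replicate 1, 0.083 without P10 replicate 4, 0.20 without P28 replicate 3 or 0.082 without P28 replicate 4.

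The remaining developmental genes had members weaker than the one at Otx2. Sall3, which encodes a zinc finger factor of cone and horizontal cell development, had one peak at chr18:81052560-81052848 with 0.436 and 1.32 RPKM at P2, 2.20 and 3.46 at P4, then 7.09 and 7.77 at P10 and 2.68 and 1.13 at P28 and another at chr18:81262789-81263184 with 3.50 and 7.69 RPKM at P2, 6.73 and 12.6 at P4, then 5.57 and 6.30 at P10 and 0.782 and 2.07 at P28. Both fell from P10 to P28 (limma adjusted p = 0.019 and 0.035), but neither held without every library (0.11 without P10 replicate 1, 0.12 without P10 replicate 4 or 0.20 without P28 replicate 4 for the first, 0.16 without P10 replicate 1, 0.19 without P10 replicate 4 or 0.28 without P28 replicate 3 for the second). At Mycn, a proliferation gene of progenitors, the peak 112074 bp away had 4.84 and 6.76 RPKM at P2, 3.76 and 6.76 at P4, then 3.26 and 2.95 at P10 and 2.29 and 2.42 at P28 and passed no comparison (P28 against P2, limma adjusted p = 0.15). Peaks near Zeb2 and Tshz3 had means of 5.14 and 3.92 RPKM at P4, their highest age, and passed none of the pairwise comparisons (lowest limma adjusted p = 0.075 and 0.14).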

How the data were processed

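NRL CUT&RUN was measured in 15 labelled libraries of C57BL/6J retina at 4 ages, with 10 pg of foreign DNA spiked in and the nuclease left to cut for 30 min, per the labels' protocols. The submitters' processing notes list bedtools 2.29.0, MACS2 2.2.5, Picard 2.20.8, SAMtools 1.9, Bowtie2 2.3.5.1 and Trimmomatic 0.38, with the builds GRCm38.p6 and ASM584v2, without their role or order. The way the scales were set was not given in the sources used here. The authors deposited RPKM for 8996 peaks in 8 libraries, 2 per age; the remaining libraries of the labels were not analysed here. From one column to the next, the width these RPKM had been divided by came from a row 39 rows earlier in the table. Whole reads were recovered from 100% of values (within 0.001), and RPKM was rebuilt with each peak's own width; 15 member values used a width of no row of the table, solved from whole reads, 1 of them with more than 1 solution. The deposited lists give the authors' signal per peak and a score; the signal served only to rank peaks within a list and the score was not used.

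The rule took peaks annotated by the authors as distal intergenic, more than 50 kb from a TSS. Each of them also overlapped the authors' peak list of at least 1 age. Members and gene lists were chosen with earlier results of these data known. Limma 3.58.1 (R 4.3.3; trend, robust) was fitted to log2(RPKM + 1), all 8 libraries in 1 fit by age (4 residual degrees of freedom), no filter, with Benjamini-Hochberg adjustment over all peaks and calls at 0.05; changes on this scale understate those of weak peaks. Where an age had 1 to 3 reads, the ratio of reads over scale is given with an exact 95% interval, and where it had 0, a bound from 3 reads over the age's libraries. That bound takes the reads of the other age without their counting error. Values per library were tested by exact permutation. The scripts were tested on simulated data. Alternatives were another pseudocount (0.1), a filter (mean RPKM of at least 1), centring, the values as deposited, limma-voom, a replicate block, each library left out, and a limit of 100 kb.

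Named peaks were the 10 strongest, up to 5 highest and 5 lowest called changes per comparison with no overlap between libraries, members of the 6 largest clusters, and up to 4 per gene list. The peaks with a printed sequence, further members in the same gaps, the other Sall3 peak and those at Zeb2 and Tshz3 were named outside this rule, after their values were seen. One peak that the rule named is not reported here, in the text or the plot of named peaks. Other computation used Matplotlib 3.10.9, SciPy 1.17.1, pandas 2.3.3 and NumPy 2.4.6 under Python 3.11.15. Gene spans and promoter windows are RefSeq's for GRCm38.p6.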

Additional observations from a re-analysis of the deposited data

How the results depend on the processing

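The 2 libraries per age and a median of 3 to 8 reads per member limit what could be called. With a pseudocount of 0.1 limma called 3 members in P10 against P4 (8 of all peaks) and 44 in P28 against P10 (474). It called 30 in P28 against P2 (336) and 93 in the F test (1520). With the values as deposited those counts were 27 (560 of all peaks), 58 (886), 29 (404) and 125 (2179). Limma-voom called 5 in P4 against P2 (36 of all peaks) and 67 in P28 against P10 (1986). Centring gave 71 in the latter (1155). Members beyond 100 kb alone gave 51, 71, 39 and 147. Replicate numbers did not pair the libraries (correlations of −0.0128 to 0.0853 between same-numbered deviations). A fit blocked on replicate number called 9 members in P4 against P2 (69 of all peaks) and 14 in P10 against P4 (183). It called 38 in P28 against P10 (432), 77 in P28 against P2 (1110) and 166 in the F test (2095). Leaving out each library, with the lone library of its age assumed to vary like the others, gave 0 to 44 in P4 against P2, 17 to 119 in P10 against P4, 44 to 143 in P28 against P10, 53 to 105 in P28 against P2 and 158 to 266 in the F test. The cause of these moves was not tested, except that the limit of 100 kb leaves fewer peaks. The 3 values tested by permutation kept p under 0.05 in every alternative run; without single libraries their difference of P28 from P2 ran from −2.43 to −1.61 percentage points, −0.90 to −0.69 and −0.52 to −0.47. Among the 1221 strongest peaks of each list, members were 68 at P4, 42 at P10 and 23 at P28. All distal intergenic peaks formed 191 clusters. Of 77 called changes checked singly, 35 held without each library, 22 in every alternative, and none turned direction in the alternatives run. The planned edgeR fit was not run, because the deposited unit is RPKM.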
